A study of Drosophila melanogaster with 6 samples.

Results

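Basement membrane and matrix genes were followed in the Malpighian tubules (renal tubules) of Drosophila melanogaster flies that carried gut tumours or did not. The set holds 10 genes, Col4a1, vkg, SPARC, Pxn, Ndg, LanA, wb, LanB1, LanB2 and trol, found by FlyBase gene identifier among the 17611 genes of the table. All 10 had enough reads to be tested. The tumour flies carried esg-GAL4, a driver active in intestinal progenitors, with UAS-GFP, tub-GAL80TS and UAS-yki3SA, a constitutively active mutant of Yorkie, the transcriptional coactivator of the Hippo pathway. The control flies carried the same driver, GFP and GAL80 transgenes without UAS-yki3SA. GAL80TS holds the driver silent at low temperature, so virgin flies of both genotypes spent 6 to 8 days at 18 °C before a shift to 29 °C that lasted 8 days. Each genotype had 80 tubules lysed and 3 libraries of poly-A RNA. Whether the 3 libraries of a genotype came from separate flies is not stated in the labels, and p-values therefore cover the spread among libraries only, part or all of which may be technical. The driver's own gene, esg, was transcribed in the tubules, at 2.26, 6.78 and 2.21 CPM (read counts scaled to the size of the library) in tumour and 6.11, 5.52 and 5.71 CPM in control libraries, so yki3SA made in tubule cells and the gut tumour cannot be told apart as the source of a difference.

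A basement membrane is the sheet of matrix on which the basal side of an epithelium rests. Collagen IV forms one of its networks and laminin trimers form the other, and nidogen and the heparan sulphate proteoglycan perlecan bind to both. In the fly larva, fat body and blood cells release much of the collagen IV that coats other organs, so the matrix of an organ need not be transcribed by the organ itself. On Malpighian tubules the sheet lies between the renal cells and the hemolymph.

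Library totals lay between 34640437 and 49338340 counts. Levels are in CPM after TMM scaling. A count of 0 allows up to 3 counts, which is 0.0517 to 0.0911 CPM depending on the library and covers counting error only. Marker genes of the tubule's principal and stellate cells were abundant in every library, with summed levels of 9147 to 11570 and 954 to 1093 CPM in tumour and 13418 to 18754 and 1241 to 1429 CPM in control tubules; 2 of 7 principal and 2 of 6 stellate cell markers were lower. Over all 9789 genes tested 14.8% were higher and 13.0% lower (adjusted p under 0.05, edgeR quasi-likelihood test), the shares to set beside each count of markers. Markers of other tissues were present too. Midgut markers summed to 15.7 to 90.3 CPM in tumour and 228 to 656 CPM in control tubules, with 10 of 12 lower, and germline and eggshell markers to 5.08 to 19.2 and 125 to 298 CPM, with 9 of 13 lower. Muscle markers summed to 975 to 1121 CPM in tumour and 956 to 1002 CPM in control tubules, with 2 of 14 higher and 1 lower, and tracheal markers to 29.4 to 34.9 and 41.9 to 46.6 CPM, with 1 of 8 lower. Progenitor markers summed to 51.3 to 68.8 CPM in tumour and 25.4 to 29.1 CPM in control tubules. Of these 4 genes heca and zfh2 rose, and esg and Delta did not pass (log2 fold change -0.62 and 1.03).

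The comparison of tumour with control tubules divided the set. Both collagen IV chains and nidogen fell in tumour tubules, between 2.95-fold and 8.11-fold, while the laminin chains wb and LanB1 and the perlecan gene trol rose, between 1.65-fold and 3.88-fold. Of the 10 genes, 3 rose and 3 fell, where 14.8% and 13.0% of the 9789 genes tested did so (edgeR quasi-likelihood test, adjusted p under 0.05 over all genes tested), and 27.8% of all genes passed in either direction. The change was 2-fold or more in 4 of the genes that passed, against 11.7% of all genes. For 8 genes the tumour and control libraries did not overlap, as was true of 46.9% of all genes; 3 lay above (26.8% of all genes) and 5 below (20.1%) in tumour tubules. The median log2 fold change was -0.32 over the set and 0.08 over all genes tested. The median absolute log2 fold change was 1.02 over the set and 0.43 over all genes. Scaling by library totals alone moved the median log2 fold change of all genes to 0.37, and the 3 rises and 3 falls kept their direction and passed there too.

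**Figure D1:**
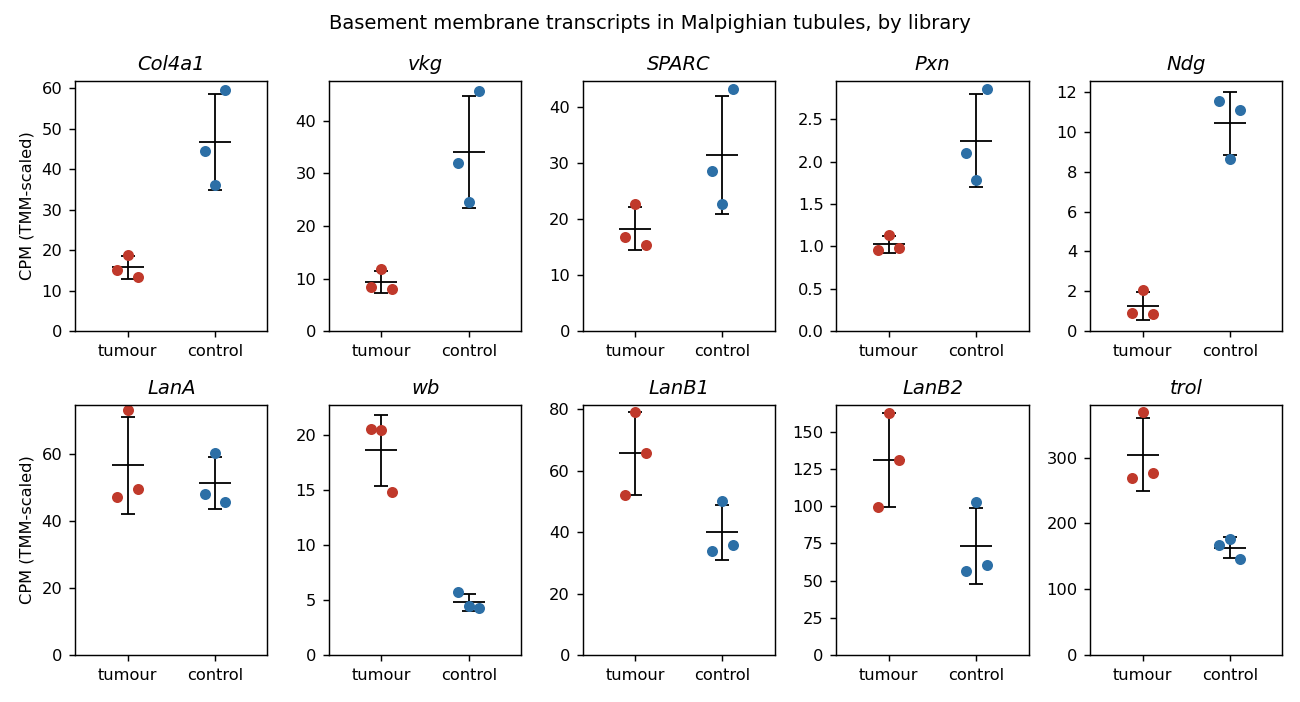
Level of each of the 10 transcripts in CPM (TMM-scaled, axes from 0) in the 3 tumour and 3 control libraries; points are libraries, and the bar and whiskers are the mean and SD. Col4a1, vkg and Ndg lay lower and wb and trol higher in every tumour library than in any control library, while the LanA libraries overlapped.

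Col4a1 and vkg encode the alpha chains that wind into the fly's collagen IV trimer. The genes stand head to head on chromosome 2L in the Ensembl BDGP6 annotation, with Col4a1 (FBgn0000299, 5029609 to 5037279) on the plus strand, vkg (FBgn0016075, 5012144 to 5028191) on the minus strand and 1417 bases between their annotated starts. Col4a1 was at 15.2, 18.9 and 13.4 CPM in tumour replicates 1, 2 and 3, against 44.5, 36.2 and 59.5 CPM in control replicates 1, 2 and 3. Every tumour library lay below every control library. Col4a1 fell 2.95-fold, with a log2 fold change of -1.56 ± 0.21 (SE; adjusted p = 0.00167, edgeR quasi-likelihood test).

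The vkg transcript was at 8.44, 11.8 and 7.97 CPM in the tumour and 32.0, 24.6 and 45.6 CPM in the control libraries, with the same order of replicates as Col4a1 in both groups. It fell 3.63-fold (log2 fold change -1.86 ± 0.26, adjusted p = 0.00197, edgeR quasi-likelihood test). Both calls held under all 14 alternatives run, with an adjusted p of at most 0.0124 for Col4a1 and 0.0139 for vkg. Within a library, the ratio of vkg to Col4a1 counts was 0.557, 0.624 and 0.594 in the tumour and 0.719, 0.681 and 0.767 in the control libraries. The ratio was lower in all 3 tumour libraries (log2 difference -0.29, exact two-sided permutation test, p = 0.10, the smallest that 3 against 3 libraries can give). In RNA from a whole organ, fewer cells of a type and less RNA per cell cannot be told apart.

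Markers of the tissues known to make collagen IV were measured in the same libraries. The 8 fat body markers summed to 45.8 to 75.7 CPM in tumour and 227 to 705 CPM in control tubules. In control tubules most of this sum was apolpp, the apolipophorin gene, at 20.8, 48.9 and 24.4 CPM in tumour and 413, 210 and 674 CPM in control libraries, which fell (log2 fold change -3.78 ± 0.56, adjusted p = 0.00585, edgeR quasi-likelihood test). The control libraries took the same order for apolpp as for Col4a1 and vkg, with replicate 3 highest and replicate 2 lowest, and tumour replicate 2 was the highest tumour library for all 3 genes. Of the other fat body markers AkhR took that control order, whereas Lsp2, Fbp1, Fbp2, Gnmt, dob and to did not. SPARC and Pxn of the set had that control order too, whereas Ndg did not, being highest in control replicate 1 (11.5, 8.63 and 11.1 CPM). An order of 3 libraries can also match by chance, and how many of all genes have this order was not counted. Of the 7 fat body markers tested, 1 fell and 2, Gnmt and dob, rose, where 13.0% of all genes tested fell and 14.8% rose. Lsp2, a storage protein gene of the fat body, was at 0.136, 0 and 0 CPM in tumour and 0.456, 0.352 and 0.152 CPM in control libraries, too few reads to be tested, and 84.6% of its exon bases overlap asRNA:CR11538, so these may not be Lsp2 reads.

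Hemocyte markers did not move together. Their sum was 251 to 278 CPM in tumour and 223 to 241 CPM in control tubules, most of it crq. Of the 8 tested 1 rose and 2 fell, where 14.8% and 13.0% of all genes tested did so. Hml, a defining gene of larval and adult blood cells, was at 3.65, 3.81 and 4.88 CPM in tumour and 2.84, 4.06 and 6.10 CPM in control libraries (log2 fold change -0.07 ± 0.34, adjusted p = 0.894, edgeR quasi-likelihood test). He had 1 count in the 6 libraries together. The gene srp, which encodes a GATA factor of both blood cells and fat body, fell 2.71-fold (adjusted p = 0.00145, edgeR quasi-likelihood test). It was at 16.6, 13.2 and 15.6 CPM in tumour tubules, against 46.3, 30.3 and 46.8 CPM in control tubules. Of the exon bases of srp 16.1% overlap lncRNA:CR44133, and of those of crq 15.7% overlap ex, whose reads may be mixed in. The part of fat body or blood cell RNA in the collagen IV result was not tested.

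SPARC encodes a secreted glycoprotein that binds collagen IV and is needed for its deposition in the fly. SPARC (FBgn0026562, chromosome 3R, 26869238 to 26871995) was at 16.8, 22.6 and 15.4 CPM in the tumour and 28.5, 22.7 and 43.2 CPM in the control libraries. The highest tumour library lay just under the lowest control library. The log2 fold change was -0.78 ± 0.26 (95% interval -1.38 to -0.19) and did not pass (adjusted p = 0.0564, edgeR quasi-likelihood test). It passed with DESeq2 (0.0104), RLE normalisation (0.0499), a filter of 5 CPM (0.0407) or without control replicate 2 (0.0240), against 0.0104 to 0.447 over all alternatives. Without control replicate 3, the highest library, the log2 fold change was -0.49.

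The ratio of SPARC to its binding partner was higher in tumour tubules, though SPARC itself was not. Its log2 fold change of -0.78, which did not pass, was smaller in size than those of Col4a1 (-1.56) and vkg (-1.86). The ratio of SPARC counts to the summed counts of Col4a1 and vkg was 0.714, 0.737 and 0.719 in tumour replicates 1, 2 and 3 and 0.373, 0.373 and 0.411 in control replicates 1, 2 and 3. The ratios of a group differed by little and the groups stood far apart. The mean log2 difference was 0.91, a 1.88-fold higher ratio in tumour libraries (exact two-sided permutation test, p = 0.10, the smallest possible). It stayed between 0.89 and 0.96 without any 1 library, and being a ratio within a library it does not depend on scaling.

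Pxn encodes peroxidasin, the matrix peroxidase that links collagen IV trimers through sulfilimine bonds, and in the fly it is also used as a blood cell marker. Pxn (FBgn0011828, chromosome 3L, 2601455 to 2630064) had the lowest level per kilobase of the set in tumour tubules, with 35, 50 and 57 counts, or 0.953, 1.13 and 0.983 CPM, in the tumour and 83, 66 and 94 counts, or 2.10, 1.79 and 2.85 CPM, in the control libraries. The groups did not overlap. The log2 fold change of -1.13 ± 0.37 (95% interval -1.99 to -0.27) did not pass (adjusted p = 0.0552, edgeR quasi-likelihood test), though it did with DESeq2 (0.0194) and RLE normalisation (0.0495), against 0.0194 to 0.256 over all alternatives. Of its exon bases 3.91% overlap CG16986 or lncRNA:CR45660, whose reads may be mixed with its own.

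Ndg encodes nidogen, which bridges laminin and collagen IV, and it had the greatest change of the 10 genes. Ndg (FBgn0026403, chromosome 2R, 10313891 to 10322104) was at 0.898, 2.09 and 0.862 CPM in the tumour libraries, which hold 33, 92 and 50 counts, and at 11.5, 8.63 and 11.1 CPM in the control libraries, which hold 455, 319 and 365. The highest tumour library lay well below the lowest control library. Ndg fell 8.11-fold (log2 fold change -3.02 ± 0.39, adjusted p = 0.00134, edgeR quasi-likelihood test), with an adjusted p of at most 0.00886 under all 14 alternatives. Of its exon bases 3.28% overlap CG34222.

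**Figure D2:**
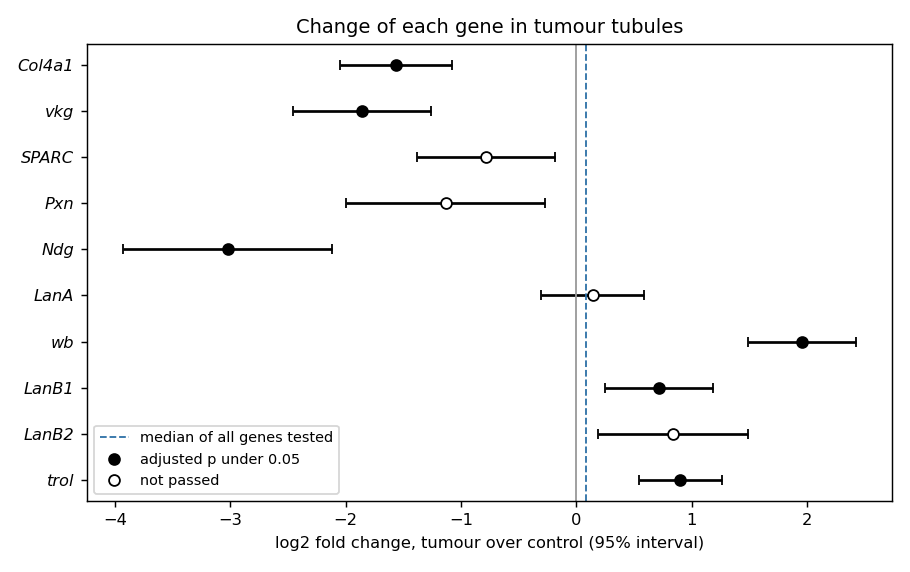
Log2 fold change of tumour over control for the 10 genes with its 95% interval from the edgeR fit; filled points passed an adjusted p of 0.05, open points did not, and the dashed line is the median of all genes tested. Ndg, vkg and Col4a1 lie left of 0 at -3.02, -1.86 and -1.56, and wb, trol and LanB1 lie right of it at 1.96, 0.90 and 0.72.

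Laminins are trimers of an alpha, a beta and a gamma chain. The fly has a choice only for the alpha chain, LanA or wb (wing blister), while LanB1 is its beta and LanB2 its gamma chain in both trimers. The alpha chain genes differed. The gene wb (FBgn0261563, chromosome 2L, 14263027 to 14328262) was at 20.5, 20.4 and 14.8 CPM in the tumour and 5.67, 4.41 and 4.28 CPM in the control libraries. Its lowest tumour library was above its highest control library, and wb rose 3.88-fold (log2 fold change 1.96 ± 0.20, adjusted p = 4.91e-04, edgeR quasi-likelihood test). The call held under all 14 alternatives, with an adjusted p of at most 0.00460.

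LanA (FBgn0002526, chromosome 3L, 6203831 to 6218022) was at 47.1, 73.1 and 49.5 CPM in the tumour and 47.9, 60.1 and 45.8 CPM in the control libraries. The groups overlapped, and the log2 fold change of 0.14 ± 0.19 did not pass (adjusted p = 0.626, edgeR quasi-likelihood test). Its 95% interval, -0.31 to 0.59, leaves room for a difference in either direction. The estimate turned to -0.084 without tumour replicate 2, the library highest in LanA. Within a library, LanA counts were 2.29, 3.58 and 3.33 times those of wb in the tumour and 8.45, 13.6 and 10.7 times in the control libraries. The log2 difference of this ratio was -1.83, a 3.56-fold lower ratio in tumour tubules with no overlap of the groups (exact two-sided permutation test, p = 0.10, the smallest possible), and its sign held without any 1 library.

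LanB1 (FBgn0261800, chromosome 2L, 7811438 to 7820771) was at 52.1, 79.0 and 65.8 CPM in the tumour and 33.7, 50.2 and 35.8 CPM in the control libraries. It rose 1.65-fold (log2 fold change 0.72 ± 0.20, adjusted p = 0.0339, edgeR quasi-likelihood test). That call was lost without tumour replicate 2 (0.0979) or 3 (0.0721) or control replicate 1 (0.102) or 3 (0.112), and in the test for a change above 1.5-fold (0.481), and its lowest adjusted p among the alternatives was 0.00736.

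LanB2 (FBgn0267348, chromosome 3L, 9614914 to 9623980) was at 99.4, 163 and 131 CPM in the tumour and 56.7, 103 and 60.3 CPM in the control libraries. Tumour replicate 1 fell short of control replicate 2, so the groups overlapped, and the log2 fold change of 0.84 ± 0.27 (95% interval 0.19 to 1.48) did not pass (adjusted p = 0.0599, edgeR quasi-likelihood test). It passed with DESeq2 (0.0147), limma-voom (0.0426), library totals alone (0.0246), a replicate block (0.00573) or without control replicate 2 (0.00812), against 0.00573 to 0.398 over all alternatives. Control replicate 2 was the highest control library for LanA, LanB1 and LanB2, and tumour replicate 2 the highest tumour library. The ratio of LanB1 to LanB2 counts was 0.524, 0.486 and 0.502 in tumour and 0.595, 0.488 and 0.593 in control libraries, which overlapped (log2 difference -0.14, exact two-sided permutation test, p = 0.30).

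**Figure D3:**
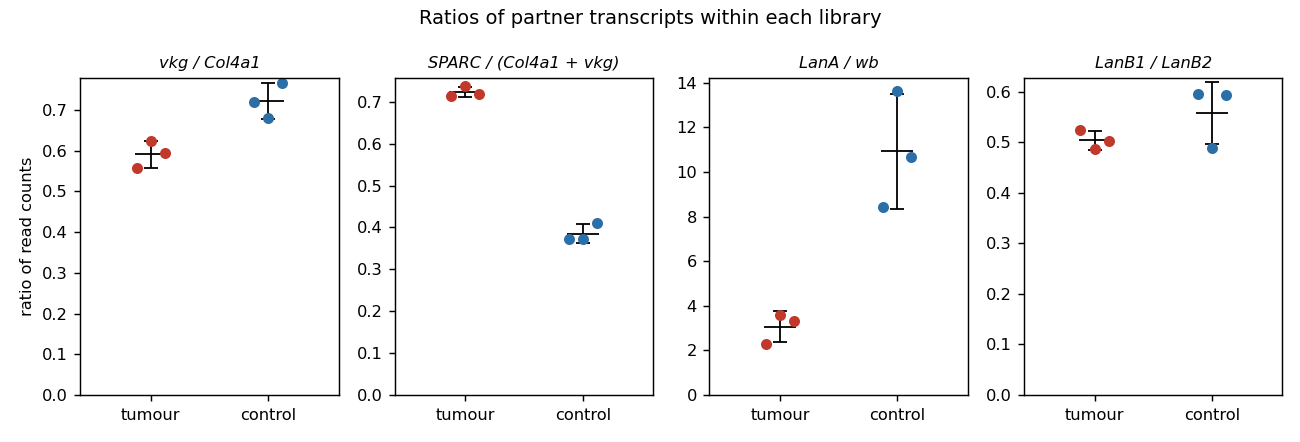
Ratios of read counts of partner transcripts within each library (axes from 0), tumour left and control right; points are libraries, with the mean and SD. SPARC relative to collagen IV is higher in every tumour library, near 0.72 against 0.37 to 0.41, LanA relative to wb is lower, and LanB1 relative to LanB2 overlaps.

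The gene trol encodes perlecan, the proteoglycan that carries heparan sulphate in the basement membrane. The trol transcript (FBgn0284408, chromosome X, 2470460 to 2545427) was at 269, 369 and 276 CPM in the tumour and 168, 176 and 145 CPM in the control libraries. All tumour libraries were above all control libraries, and trol rose 1.87-fold (log2 fold change 0.90 ± 0.16, adjusted p = 0.00501, edgeR quasi-likelihood test). The call was lost only against a fold of 1.5 (adjusted p = 0.0991), among 1.42e-05 to 0.0991 over the alternatives. The annotation lists 25 transcripts of trol, and a count per gene does not tell them apart.

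Levels can be compared between the genes only per length. Divided by the total length of annotated exons, SPARC had the highest level in control tubules, 26.2 ± 8.80 CPM per kilobase (SD, n = 3), followed by LanB2 at 12.4 ± 4.34, trol at 7.88 ± 0.763, Col4a1 at 7.58 ± 1.92, LanB1 at 6.35 ± 1.43, vkg at 5.24 ± 1.64 and LanA at 4.39 ± 0.662. In that order the neighbours from trol to LanA overlapped in their libraries, whereas SPARC stood above LanB2 and LanB2 above trol in all 3. Ndg, at 2.16 ± 0.324, was separate from LanA, and Pxn and wb, at 0.377 ± 0.0922 and 0.344 ± 0.0553, overlapped at the low end.

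In tumour tubules LanB2 led at 22.1 ± 5.34 CPM per kilobase, and SPARC at 15.2 ± 3.19 and trol at 14.7 ± 2.71 came next, each overlapping its neighbour. LanB1 at 10.4 ± 2.14, LanA at 4.84 ± 1.23, Col4a1 at 2.57 ± 0.456 and vkg at 1.45 ± 0.321 followed, each separate from the next. The chain wb, at 1.34 ± 0.234, overlapped vkg, and Ndg at 0.266 ± 0.145 overlapped Pxn at 0.172 ± 0.0163. With the longest transcript as the length, chosen as an alternative after the data were seen, trol stood at 21.4 in tumour and 11.5 CPM per kilobase in control tubules and came before SPARC in tumour tubules, and wb at 1.64 came before vkg there. In control tubules LanB2 was then above trol in only 2 of the 3 libraries and overlapped it, and trol was separate from Col4a1.

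As shares of the 10 genes' counts per kilobase, the collagen IV chains held 6.09%, 5.43% and 5.01% in the tumour and 18.3%, 13.8% and 20.2% in the control libraries. The 4 laminin chains held 49.6%, 53.1% and 55.9% in tumour and 29.4%, 44.1% and 24.4% in control libraries, and trol 21.1%, 19.8% and 19.7% in tumour and 12.3%, 12.2% and 8.52% in control libraries. Ndg, Pxn and SPARC together held 23.3%, 21.6% and 19.4% in tumour and 40.0%, 30.0% and 46.9% in control libraries, the class with the greatest mean share in control tubules (39.0% ± 8.53, SD, n = 3). None of these 4 shares per kilobase overlapped between the groups. As shares of counts not divided by length, the laminin chains did overlap. They held 41.3%, 44.0% and 45.4% in tumour and 33.5%, 44.6% and 32.2% in control libraries. By that measure Ndg, Pxn and SPARC held a mean of 9.72% in control libraries. These shares add to a fixed total, so they are not independent of each other. The 10 genes together took 0.0687% ± 0.0130 of all counts in tumour and 0.0415% ± 0.00439 in control libraries (SD, n = 3 each).

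**Figure D4:**
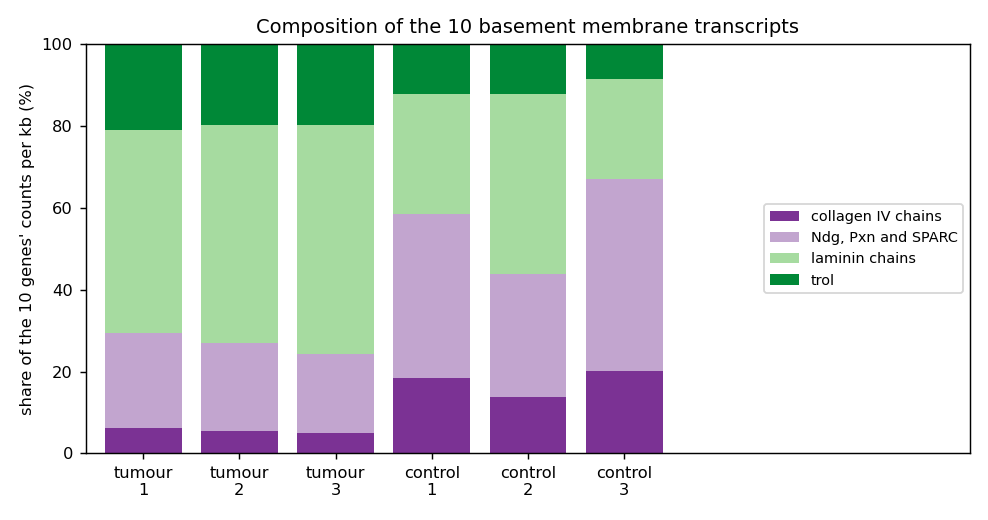
Share of each class in the counts per kilobase of the 10 genes, in percent, for the 3 tumour and the 3 control libraries; each bar adds to 100%. The collagen IV part lies between 5.01% and 6.09% in tumour and between 13.8% and 20.2% in control libraries.

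Genes that modify, secrete, bind or cut matrix were counted in 5 lists. Of all genes tested 14.8% rose and 13.0% fell, the shares to set beside the count of each list. Of 12 tested genes of collagen modification and secretion, 3 rose and 0 fell in the edgeR test (2 lower at an unadjusted p under 0.05, 2 lower by DESeq2, 0 by limma-voom), and the list's median log2 fold change was 0.03. Rab10, a small GTPase that directs basement membrane cargo to the basal side, rose to 195, 203 and 186 CPM in tumour, against 96.3, 107 and 95.7 CPM in control libraries (log2 fold change 0.96 ± 0.11, adjusted p = 6.67e-04, edgeR quasi-likelihood test). The call of Rab10 held under all 14 alternatives. The other calls, strat and the COPII coat gene Sec23, had an adjusted p of 0.0407 and 0.0459 and were each lost in 10 of 14 alternatives. Among them were the fits without 1 library, at 0.0751 to 0.154 for strat, which kept its call only without control replicate 2, and 0.0528 to 0.138 for Sec23.

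The genes that act on the collagen chains themselves did not pass. PH4alphaEFB, the prolyl hydroxylase that works on collagen, was at 72.1 ± 7.19 CPM in tumour and 53.2 ± 11.5 CPM in control tubules (SD, n = 3 each, adjusted p = 0.0875, edgeR). The lysyl hydroxylase gene Plod was at 11.0 ± 2.69 and 12.9 ± 1.75 CPM (adjusted p = 0.469), and Tango1, needed to export collagen from the endoplasmic reticulum, at 184 ± 25.7 and 169 ± 13.3 CPM (adjusted p = 0.550). Loxl2 was too rare to be tested.

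Among matrix receptors 2 of 11 tested genes rose and 0 fell in the edgeR test (0 lower at an unadjusted p under 0.05, 0 by DESeq2 and 0 by limma-voom), and the list's median log2 fold change was 0.22. The rises were near the share over all genes tested, 14.8%, and 13.0% of all genes fell. The integrin alpha chain gene mew (alphaPS1), a laminin receptor, rose to 386, 370 and 337 CPM in tumour, against 180, 187 and 219 CPM in control libraries (log2 fold change 0.90 ± 0.13, adjusted p = 0.00190, edgeR quasi-likelihood test). Against a fold of 1.5 mew missed the threshold (0.0543), and its adjusted p spanned 1.92e-07 to 0.0543 among the alternatives. The syndecan gene Sdc rose 1.42-fold (adjusted p = 0.0282, edgeR), a call lost without tumour replicate 1 (0.0900), 2 (0.0846) or 3 (0.0525), without control replicate 3 (0.0598), with RLE normalisation and in the test for a change above 1.5-fold, over a range of 0.00199 to 0.99999. The main beta chain, mys, was at 354, 532 and 401 CPM in tumour and 233, 397 and 260 CPM in control libraries (adjusted p = 0.130, edgeR), and Dg, the dystroglycan gene, at 50.1 ± 5.37 and 47.6 ± 1.45 CPM. Without control replicate 2, 4 receptor genes rose, and without tumour replicate 1, 2 or 3 or control replicate 3 only mew did.

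Of 13 genes of the complex that ties integrins to actin, 5 rose and 0 fell in the edgeR test (0 lower at an unadjusted p under 0.05, 0 by DESeq2 and 0 by limma-voom), and the list's median log2 fold change was 0.27. Over all genes tested 14.8% rose and 13.0% fell. Vinc, which encodes the actin linker vinculin, rose 2.18-fold, at 238, 278 and 237 CPM in tumour and 102, 141 and 102 CPM in control libraries (adjusted p = 0.00200, edgeR quasi-likelihood test). The adaptor gene p130CAS rose 1.80-fold (adjusted p = 0.00119, edgeR), and ics 1.44-fold (adjusted p = 0.0110). Pax, the paxillin gene, rose by 0.59 ± 0.14 and parvin by 0.36 ± 0.10 on the log2 scale (adjusted p = 0.0195 and 0.0326, edgeR). The calls of Pax and parvin were both lost without tumour replicate 1 (0.0904 and 0.106) or 2 (0.0518 and 0.108) and without control replicate 1 (0.0572 and 0.0749) or 3 (0.0678 and 0.112), and in each of these fits 3 genes of the list rose. The call of parvin was also lost without tumour replicate 3 (0.0616), and 22.5% of its exon bases overlap Alr or an antisense RNA. The talin gene rhea and Ilk did not pass (log2 fold change 0.12 and 0.01).

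Of 13 tested genes of other matrix proteins, 3 fell, 0 rose and 10 did not pass in the edgeR test (1 higher at an unadjusted p under 0.05, 0 by DESeq2, 1 by limma-voom), and the median log2 fold change was -0.22. Over all genes tested 13.0% fell and 14.8% rose. With library totals alone 3 genes of this list rose and 1 fell, and with the replicate block, limma-voom or no filter 1 rose and 1 fell. Glt, the glutactin gene, was at 4.87, 12.9 and 7.16 CPM in tumour and 49.3, 30.5 and 63.0 CPM in control libraries. It fell 5.71-fold (adjusted p = 0.00753, edgeR quasi-likelihood test), a call held under all 14 alternatives. As for Col4a1 and apolpp, control replicate 3 was the highest and control replicate 2 the lowest of the control libraries, and tumour replicate 2 the highest of the tumour libraries. Such an order of 3 libraries can match by chance. How many of all genes have it was not counted, and a shared source was not tested. The falls of loh and of the netrin gene NetB passed narrowly (adjusted p = 0.0489 and 0.0499, edgeR) and were lost without any 1 of tumour replicates 1, 2 and 3 and control replicates 1 and 3 (0.0589 to 0.167 and 0.0722 to 0.167). NetB averaged 0.691 ± 0.184 CPM in tumour and 1.90 ± 0.682 CPM in control tubules (SD, n = 3 each). Ppn, the papilin gene, was at 19.7 ± 2.02 and 12.9 ± 3.25 CPM and did not pass (adjusted p = 0.0572, edgeR). Without tumour replicate 1 or 3 or control replicate 1 or 3 only Glt fell, and 2 genes did so without tumour replicate 2.

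Genes of matrix remodelling rose in 4 of 7 cases and fell in 1, where 14.8% and 13.0% of all genes tested did so. The list's median log2 fold change was 1.22 beside 0.08 over all genes tested. The metalloproteinase gene stl (stall), of the ADAMTS family, was at 7.51, 13.7 and 8.16 CPM in tumour and 1.01, 0.541 and 1.03 CPM in control libraries. It rose 11.3-fold (log2 fold change 3.50 ± 0.38, adjusted p = 6.09e-04, edgeR quasi-likelihood test). AdamTS-B, of the same family, rose 2.96-fold, at 76.8, 88.7 and 79.1 CPM in tumour and 27.8, 28.3 and 26.6 CPM in control libraries (adjusted p = 9.72e-05). Mmp2, a membrane-anchored matrix metalloproteinase able to cut collagen IV, was at 7.70, 20.3 and 8.02 CPM in tumour and 1.67, 3.08 and 1.88 CPM in control libraries (log2 fold change 2.44 ± 0.46, adjusted p = 0.00772). The calls of stl, AdamTS-B and Mmp2 held under all 14 alternatives.

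Timp, the inhibitor of these metalloproteinases, rose as well, at 15.0, 34.1 and 26.2 CPM in tumour and 11.4, 12.1 and 8.72 CPM in control libraries (log2 fold change 1.22 ± 0.29, adjusted p = 0.0203, edgeR quasi-likelihood test). Its call was lost without control replicate 1 (0.0626) or 3 (0.0727) and in the test for a change above 1.5-fold (0.111), where the lowest of its adjusted p among the alternatives was 9.02e-04, and 15.7% of its exon bases overlap Syn. Mmp1, the gene of the secreted matrix metalloproteinase, was at 451, 563 and 414 CPM in tumour and 341, 592 and 397 CPM in control libraries, which overlapped (adjusted p = 0.763, edgeR). AdamTS-A did not pass (37.0 ± 10.4 and 56.4 ± 20.6 CPM in tumour and control tubules, adjusted p = 0.207). Reck, named after a vertebrate membrane inhibitor of metalloproteinases, fell 2.08-fold with an adjusted p of 0.0489 by edgeR, and that call was lost in all 6 fits without 1 library (0.0507 to 0.122).

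**Figure D5:**
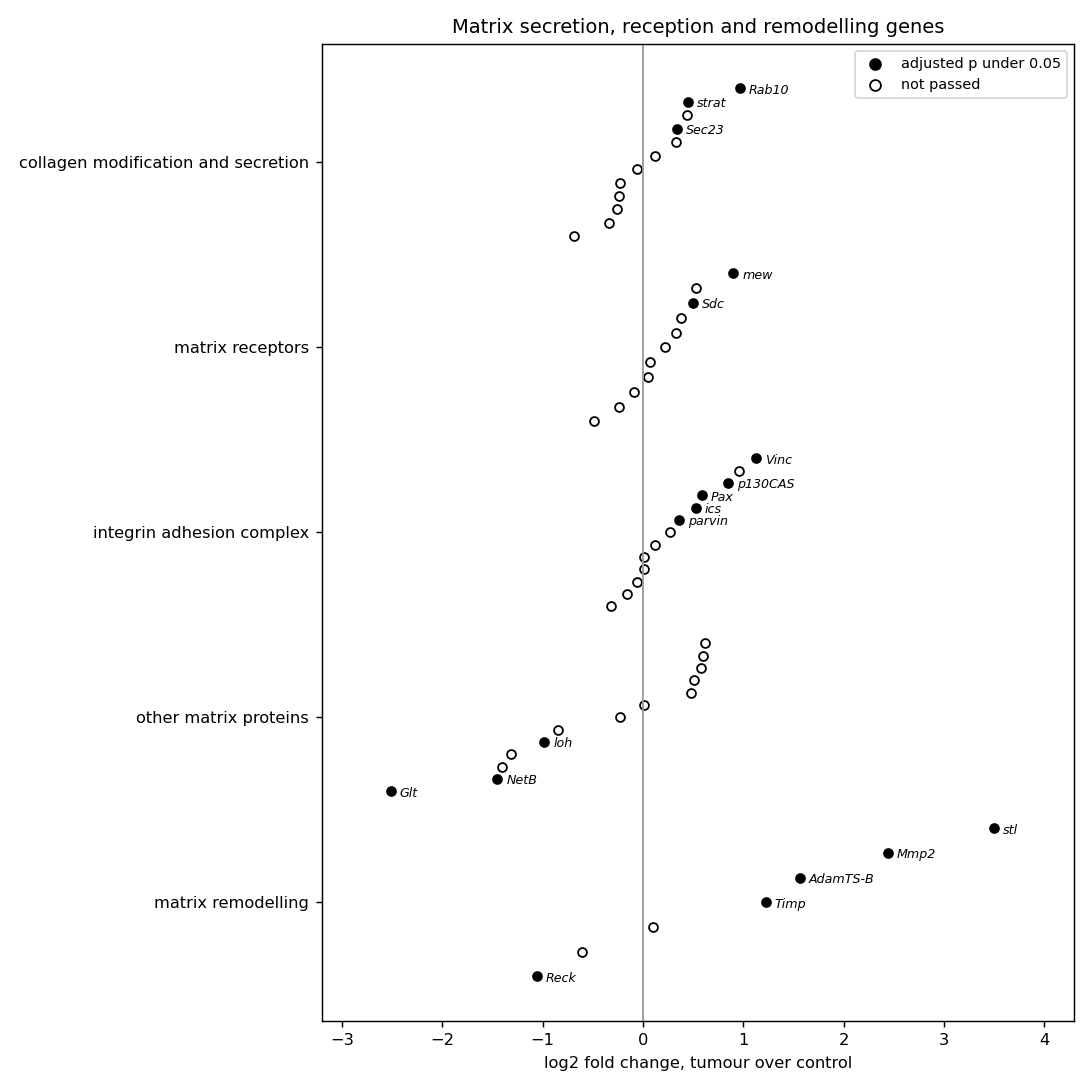
Log2 fold change of tumour over control for every tested gene of the 5 lists, ordered within a list; filled and named points passed an adjusted p of 0.05, open points did not. Remodelling genes reach 3.50 for stl, and the lowest point is Glt at -2.51.

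Among 6104 genes with a mean log2 CPM of at least 3, those whose profile over the 6 libraries was closest to the mean profile of Col4a1 and vkg were Hn, Slc45-1, GLaz, Nepl11 and Ugt35B1. Closeness was the root-mean-square difference of log2 CPM after each gene was centred on its own mean, and it was 0.10 for Hn, the phenylalanine hydroxylase gene, and 0.17 for Ugt35B1, the last of these 5. Hn was at 4.60, 6.30 and 3.95 CPM in tumour and 18.0, 11.7 and 20.9 CPM in control libraries. Of the other members of the set above that level, SPARC came closest, at 0.47 and rank 266, whereas wb was at 1.84 and rank 6023. Ndg and Pxn lay below that level and were not compared. The measure rests on 6 libraries in 2 groups, and any gene that was lower in tumour tubules by a like amount will score well.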

How the data were processed

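RNA from Malpighian tubules of 3 tumour and 3 control libraries had an integrity number above 7 and went through poly-A selection and the TruSeq kit before sequencing, per the labels' protocols. The table the authors deposited gives raw read counts for each gene. TopHat, Cufflinks and HTSeq are named in the submitters' processing notes without version or role; the sources used here do not state the build, the annotation or whether counting used strand, so reads of overlapping genes may be mixed. Symbols and positions came from FlyBase identifiers and the Ensembl BDGP6 annotation (59 of 17611 identifiers had no symbol); its positions and exon lengths need not be those on which reads were counted.

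Genes were filtered with filterByExpr (minimum count 10, minimum total 15), which left 9789, and tested with the robust quasi-likelihood test of edgeR 4.0.16 in R 4.3.3 after TMM scaling, two-sided, without covariates. P-values were adjusted by Benjamini-Hochberg across the 9789 genes and called under 0.05. Each SE is the log2 fold change over the root of its F statistic. The common biological coefficient of variation came to 30.8%. Ratios within libraries were compared by exact permutation with scipy 1.17.1. Alternatives were RLE normalisation, library totals alone, no filter, 5 CPM in 3 libraries, a replicate block, DESeq2 1.42.0, limma-voom 3.58.1, a fold of 1.5 and leaving out each library; exon length was varied after the data were seen. The code was tested on simulated counts. Replicates differed by far more than sampling noise.

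The members, the 5 pathway lists and the 9 marker lists were chosen with earlier results of these data known. Genes named were all members, every list gene that passed, and the 5 genes closest in profile to collagen IV; list genes named without passing, and the markers given by value, were picked after their values were seen. All 152 list entries matched the table, 7 of them through a synonym.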

Additional observations from a re-analysis of the deposited data

How the results depend on the processing

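Counts of calls moved with the scaling, the tool and single libraries. Over all genes 1453 rose and 1273 fell; with library totals alone the counts were 3079 and 830, against a fold of 1.5 they were 336 and 480, and without 1 library they were 865 to 1223 and 882 to 1141. Of the 10 basement membrane genes 3 rose and 3 fell; 1 rose against a fold of 1.5, 5 fell with RLE normalisation or DESeq2, and 2 to 4 rose and 3 or 4 fell without 1 library. For collagen modification and secretion the rises numbered 5 with library totals, 1 with RLE, a filter of 5 CPM or a fold of 1.5, and 1 to 3 without 1 library, and the falls 1 with RLE, 1 with a filter of 5 CPM and 2 with DESeq2. For receptors 4 rose with library totals, 1 with RLE, 0 against a fold of 1.5 (glmTreat of edgeR) and 1 to 4 without 1 library. For the integrin complex 1 rose against a fold of 1.5 and 3 to 5 without 1 library. For other matrix proteins 3 rose with library totals and 1 with no filter, the replicate block or limma-voom, while 1 fell with library totals, no filter, a filter of 5 CPM, the block, limma-voom or a fold of 1.5, and 1 to 4 without 1 library. For remodelling 3 or 4 rose without 1 library, and the falls numbered 0 in the edgeR test with library totals, no filter, a filter of 5 CPM, the block or a fold of 1.5, and 0 or 1 without 1 library. The cause was not tested. Each of the 4 ratios kept its sign without any 1 library; vkg to Col4a1 lay between -0.33 and -0.24, LanB1 to LanB2 between -0.24 and -0.09.

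Of 388 values recomputed for 28 named genes, 295 kept direction and call, 81 lost the call, 11 gained it and 1, LanA without tumour replicate 2, changed sign (-0.084 to 0.27 without 1 library). Same-numbered libraries did not deviate together over all genes tested (correlations 0.08, -0.08 and 0.06 for numbers 1, 2 and 3). Libraries of unlike number gave -0.15 to 0.10. These correlations show no pairing by number but, with 3 libraries per group, cannot exclude it. With the replicate block 4 of the 10 genes rose and 3 fell. Depth limits the genes with under 100 counts in some libraries, among them Pxn, Ndg, NetB, loh, Reck, Mmp2 and stl.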
